A study of Homo sapiens with 6 samples.

Results

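Solute carriers are membrane proteins that move ions, sugars, amino acids, nucleotides, vitamins and metals across the plasma membrane and the membranes of organelles, and their symbols give a family number and a member number. NHE3, the product of SLC9A3, is one of them and exchanges luminal sodium for protons at the apical membrane of the colonic epithelium. The genes described here were those of the array table whose symbol is SLC followed by digits, a letter and digits, or begins with SLCO. This rule found 21 of the 14884 genes that had a named probe set, each with 1 probe set, from 14 families. RefSeq lists 394 symbols of this form, and the other ones, among them the classical transporters of zinc and the facilitative hexose transporters, were not analysed here. In the annotation used, 32046 of the 48144 probe sets had no gene symbol. The 21 genes are therefore those with a name in it, and the array may measure other solute carriers. Of the 21 genes 20 encode proteins, and the other, SLCO4A1-AS1, is an antisense RNA that came in through its name.

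The genes with a named probe set are mostly members that were given an SLC number late, and many of them are orphans, that is, transporters without an agreed substrate. The largest group held 8 genes of the families SLC60, SLC61, SLC67, SLC68, SLC71 and SLC75, which belong to the major facilitator superfamily, proteins built of paired bundles of membrane helices that rock between an outward and an inward opening. Genes of SLC33 and SLC49 carry names of that superfamily too, but were placed in a mixed group labelled vitamin, nucleoside and lipid. This label is broad and need not describe each of its genes. The other groups were the PQ-loop proteins of SLC66 (3 genes), this mixed group (3 genes) and the nucleotide sugar family SLC35 (2 genes). The ornithine carriers of the inner mitochondrial membrane gave 2 genes, and the acid-base, amino acid and organic anion groups 1 gene each. SLC9D1 is the only gene of the family of NHE3 among them.

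RNA was taken from confluent cultures of SK-CO15, a human colonic adenocarcinoma line that polarizes and expresses NHE3. In the 3 Ctrl samples (1, 4 and 9) the cells carried a lentivirus with scrambled shRNA, and in the 3 NHE3kd samples (2, 3 and 10) a lentivirus pool of shRNAs against SLC9A3. Both viruses expressed the shRNA from the U6 promoter and also carried EGFP and puromycin resistance, and both populations were sorted for EGFP, selected in puromycin and kept as mixed populations rather than clones. The labels do not say if the 3 samples per group were grown apart, and a p-value here measures no more than their spread, which can be technical.

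Values are log2 differences from the Ctrl mean, which the authors set to 0 for each probe set, so levels are unknown and neither the levels of different genes nor markers of the colonic epithelium could be set against each other. SLC9A3 had no named probe set, so its own transcript gave no check of the labels. The overlapping transcript SLC9A3-OT1, outside the rule, had a log2 fold change of 0.19 (SE 0.10, limma adjusted p = 0.378). Over the 21 genes the median was -0.09 in Ctrl 1, -0.015 in Ctrl 4 and 0.07 in Ctrl 9. Ctrl 9 was the highest Ctrl array for 11 of them (52.4%, against 38.2% over all named genes) and Ctrl 1 the lowest for 10. NHE3kd 10 was the highest NHE3kd array for 10 of them (47.6%, against 38.4% over all named genes). Since whole cultures were measured, fewer cells of a kind and less RNA per cell cannot be told apart.

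SLC60A2, SLC35D4 and SLC9D1 were higher and SLC75A1 was lower in NHE3kd cells, and the other 17 genes did not pass the test. A gene was called changed at an adjusted p under 0.05 from limma, adjusted by the Benjamini-Hochberg method across 48144 probe sets, of which 8.74% were called. The genes called were 4 of 21, and 14.5% of all 14884 named genes were called. In the upward direction 3 genes were called, with 9.96% of all named genes called upward, and in the downward direction 1 gene, with 4.51% called downward. At an unadjusted p under 0.05 there were 8 genes (38.1%), compared with 32.5% of all named genes. The median log2 fold change of the 21 genes was 0.05 and that of all named genes -0.00082, and the median size of the change, regardless of sign, was 0.19 and 0.12. The groups did not overlap for 9 of the 21 genes, 7 with NHE3kd higher and 2 with NHE3kd lower. Among all named genes 35.7% did not overlap, 21.1% with NHE3kd higher and 14.6% with NHE3kd lower. These shares of the solute carriers lay near those of the array as a whole.

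**Figure D1:**
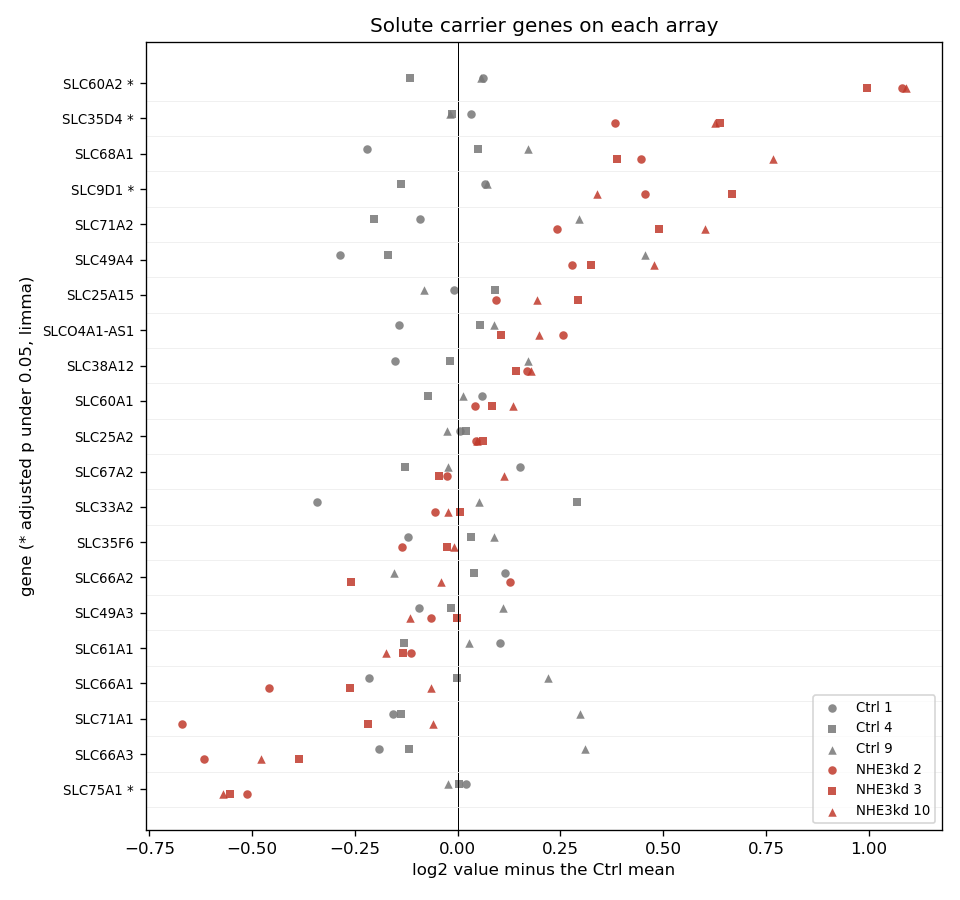
Each row is 1 of the 21 solute carrier genes and each point is 1 array, with the log2 value minus the Ctrl mean on the x axis, grey for the 3 Ctrl arrays and red for the 3 NHE3kd arrays. The 4 genes with a star passed limma at an adjusted p under 0.05. SLC60A2 lies farthest to the right, with its NHE3kd arrays between 1.00 and 1.09, and SLC75A1 lies farthest to the left, between -0.57 and -0.51.

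The sequences directly before the transcription start are shown for 3 of the 4 changed genes. SLC35D4 had no entry in the RefSeq promoter table used, and for SLC75A1, which has 2 entries, the one farther upstream is given. Each run holds the 250 bases before the start on GRCh38.p14, 5′ to 3′ on the strand of the gene, with capitals for a CACGTG (E-box), GGGCGG (GC box), CCAAT or TATAAA motif read on either strand. They are chr6:111259089-111259338 on the plus strand for SLC60A2, chr13:113490771-113491020 on the plus strand for SLC9D1 and chr4:2934826-2935075 on the minus strand for SLC75A1.
SLC60A2: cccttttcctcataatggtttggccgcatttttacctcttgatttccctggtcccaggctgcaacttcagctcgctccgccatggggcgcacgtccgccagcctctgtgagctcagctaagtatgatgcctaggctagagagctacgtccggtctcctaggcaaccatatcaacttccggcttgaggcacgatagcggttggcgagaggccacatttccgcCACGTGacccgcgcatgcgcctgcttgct
SLC9D1: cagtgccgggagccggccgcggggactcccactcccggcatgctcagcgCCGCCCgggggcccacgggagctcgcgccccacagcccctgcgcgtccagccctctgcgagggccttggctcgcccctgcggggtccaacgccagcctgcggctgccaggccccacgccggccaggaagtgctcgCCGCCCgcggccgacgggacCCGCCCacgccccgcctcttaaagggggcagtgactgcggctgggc
SLC75A1: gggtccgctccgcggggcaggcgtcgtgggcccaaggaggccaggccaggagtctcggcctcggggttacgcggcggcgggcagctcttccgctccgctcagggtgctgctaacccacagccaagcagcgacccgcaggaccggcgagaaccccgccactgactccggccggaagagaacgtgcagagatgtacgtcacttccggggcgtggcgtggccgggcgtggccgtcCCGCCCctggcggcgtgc

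The window of SLC60A2 held 1 E-box and no GC box, that of SLC9D1 held 3 GC boxes, and that of SLC75A1 held 1 GC box. An E-box of this spelling was found in 2 of the 16 solute carrier genes with a window (SLC60A2 and SLCO4A1-AS1) and in 6.34% of all 35116 windows. A GC box was found for 14 of the 16 genes and in 42.6% of all windows. TATAAA was found in 0 of the 16 and in 10.7% of all windows, and CCAAT in 3 of the 16 and in 11240 of the 35116 windows. The G and C content of these windows ranged from 58.0% for SLC60A2 to 84.4% for SLC60A1 and SLC66A3, with a median of 71.2% against 58.0% over all windows. The windows over all genes were not filtered by gene type, whereas 20 of the 21 solute carriers encode proteins, so these comparisons are not matched. Motif shares count genes for the solute carriers and windows for the whole set. Matches of different motifs can share bases at their ends and were each counted, and a match describes letters only.

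SLC60A2 encodes a major facilitator protein, also named MFSD4B or NaGLT1, whose rat form was described as a sodium-dependent glucose transporter of the kidney. Its values were 0.06, -0.12 and 0.06 in Ctrl 1, 4 and 9 and 1.08, 1.00 and 1.09 in NHE3kd 2, 3 and 10. All NHE3kd arrays lay well above all Ctrl arrays, with a spread in the NHE3kd group of 0.05 (SD, n = 3). The gene was 2.08-fold higher (log2 fold change 1.06, SE 0.06, 95% confidence interval 0.90 to 1.21, limma adjusted p = 0.00186). This was the 131st largest rise among the 14884 named genes. Of the 21 genes only SLC60A2 passed a test against a change of 1.5-fold, close to the threshold (limma adjusted p = 0.0497). Leaving out any single array kept the log2 fold change between 1.00 and 1.09 and the adjusted p from limma at 0.0139 or below.

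SLC60A1, the other measured gene of that family, is an orphan also named MFSD4A. Its values were 0.06, -0.07 and 0.012 in Ctrl cells and 0.041, 0.08 and 0.13 in NHE3kd cells, and the groups overlapped. The log2 fold change was 0.09 (SE 0.05, 95% confidence interval -0.033 to 0.20, limma adjusted p = 0.402). On each array SLC60A1 was then set against SLC60A2, and the difference was -1.04, -0.91 and -0.96 in NHE3kd 2, 3 and 10 and between -0.044 and 0.045 in Ctrl cells. The groups did not overlap, and the mean difference was -0.97 on the log2 scale. A two-sided exact permutation test gave p = 0.10 (0.20 adjusted over the 8 pairs compared within families). With 3 arrays against 3 this p cannot go lower, so no pair could pass at 0.05.

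SLC75A1 encodes a major facilitator protein also named MFSD10 or TETRAN, which has been described as a carrier of organic anions. Its values were 0.021, 0.0034 and -0.025 in Ctrl 1, 4 and 9 and -0.51, -0.55 and -0.57 in NHE3kd 2, 3 and 10. Both groups were tight, with an SD of 0.03 in NHE3kd cells (n = 3), and lay apart. The gene was 1.46-fold lower (log2 fold change -0.55, SE 0.03, 95% confidence interval -0.63 to -0.47, limma adjusted p = 0.00187). Of the 21 genes only SLC25A2 had a smaller standard error. With any single array left out the log2 fold change stayed between -0.56 and -0.53.

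SLC35D4, also named TMEM241, belongs to the family of nucleotide sugar transporters, which bring activated sugars into the Golgi apparatus and endoplasmic reticulum for glycosylation. Its values were 0.032, -0.013 and -0.019 in Ctrl cells and 0.38, 0.64 and 0.63 in NHE3kd cells. NHE3kd 2 was the lowest NHE3kd array and still lay above every Ctrl array. The gene was 1.46-fold higher (log2 fold change 0.55, SE 0.08, 95% confidence interval 0.36 to 0.74, limma adjusted p = 0.0141). The call was lost without Ctrl 4 (limma adjusted p = 0.0592) or NHE3kd 3 (limma adjusted p = 0.0571). SLC35F6, the other measured gene of SLC35, had values of -0.12, 0.033 and 0.09 in Ctrl cells and -0.13, -0.027 and -0.010 in NHE3kd cells, with a log2 fold change of -0.06 (SE 0.07, limma adjusted p = 0.747). SLC35D4 minus SLC35F6 was 0.52, 0.66 and 0.64 in NHE3kd cells and at most 0.15 in Ctrl cells (exact permutation p = 0.10, the lowest possible here, adjusted 0.20).

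SLC9D1, also named TMCO3, is grouped with the sodium-proton exchangers by its sequence, which resembles the cation-proton antiporters of bacteria. Its values were 0.07, -0.14 and 0.07 in Ctrl 1, 4 and 9 and 0.46, 0.67 and 0.34 in NHE3kd 2, 3 and 10. The groups did not overlap, and NHE3kd 10 lay nearest to the Ctrl arrays. The gene was 1.40-fold higher (log2 fold change 0.49, SE 0.10, 95% confidence interval 0.23 to 0.74, limma adjusted p = 0.0468). The adjusted p lay close to the threshold and did not pass it without any single array, at 0.057 to 0.13 from limma, while the log2 fold change stayed between 0.40 and 0.56. The call was also lost after quantile normalization of the deposited values, where the log2 fold change was 0.35 (limma adjusted p = 0.343). That setting gives all columns 1 distribution, although their SDs were 0.10 to 0.14 in Ctrl and 0.31 to 0.33 in NHE3kd arrays. It also reduced the log2 fold change of SLC60A2 to 0.76, and calls over all probe sets fell from 4206 to 478. SLC60A2 (limma adjusted p = 0.0441), SLC35D4 (limma adjusted p = 0.0483) and SLC75A1 (limma adjusted p = 0.0281) nevertheless kept their calls in that setting, and SLC9D1 did not. The call of SLC9D1 was also lost with the title number as a covariate (limma adjusted p = 0.0583).

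**Figure D2:**
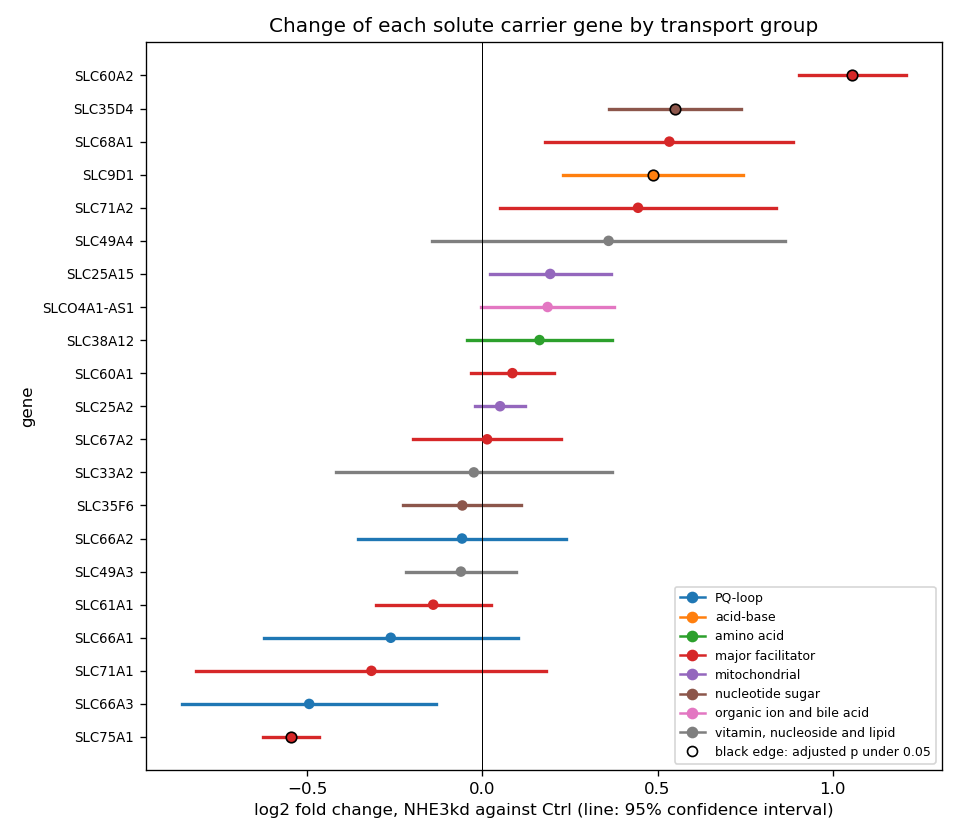
Points are log2 fold changes of NHE3kd against Ctrl for the 21 genes and lines are 95% confidence intervals from limma, with 1 colour per transport group and a black edge for the 4 genes past the test. The intervals of SLC60A2 (0.90 to 1.21) and SLC75A1 (-0.63 to -0.47) are narrow and far from 0, whereas those of SLC49A4 and SLC71A1 span 0.

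The remaining genes of this major facilitator group ranged from -0.32 to 0.53 in log2 fold change. SLC68A1, also named TMEM180, had values of -0.22, 0.05 and 0.17 in Ctrl cells and 0.45, 0.39 and 0.77 in NHE3kd cells. The groups did not overlap, but the spread within them was wide, and the log2 fold change of 0.53 (SE 0.14, 95% confidence interval 0.18 to 0.89) did not pass the test (limma adjusted p = 0.0876). It passed where the number in the sample title entered the fit as a covariate (limma adjusted p = 0.0113) and where only named probe sets were tested (limma adjusted p = 0.0495). SLC61A1, also named MFSD5 and described as a molybdate transporter, had a log2 fold change of -0.14 (SE 0.07, limma adjusted p = 0.312), and the orphan SLC67A2, also named MFSD9, one of 0.014 (95% confidence interval -0.20 to 0.22).

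The orphan proteins SLC71A1 and SLC71A2, also named MFSD14A and MFSD14B, are close relatives of each other, and neither passed the test. SLC71A1 had values of -0.16, -0.14 and 0.30 in Ctrl 1, 4 and 9 and -0.67, -0.22 and -0.06 in NHE3kd 2, 3 and 10, with a log2 fold change of -0.32 (SE 0.20, limma adjusted p = 0.478). SLC71A2 had values of -0.09, -0.20 and 0.29 in Ctrl cells and 0.24, 0.49 and 0.60 in NHE3kd cells, with a log2 fold change of 0.44 (SE 0.16, limma adjusted p = 0.18). In both, the groups overlapped and Ctrl 9 was the high Ctrl array. The log2 fold change of SLC71A1 was -0.14 without NHE3kd 2 and -0.17 without Ctrl 9. Set against each other on the same array, SLC71A1 minus SLC71A2 was -0.07, 0.06 and 0.0031 in Ctrl cells and -0.91, -0.71 and -0.66 in NHE3kd cells. The mean difference was -0.76 on the log2 scale and the groups lay apart. The exact permutation p of 0.10 (adjusted 0.20) is the lowest possible here, so this test could not pass. Whether probes of these relatives also bind the transcript of the other was not tested.

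**Figure D3:**
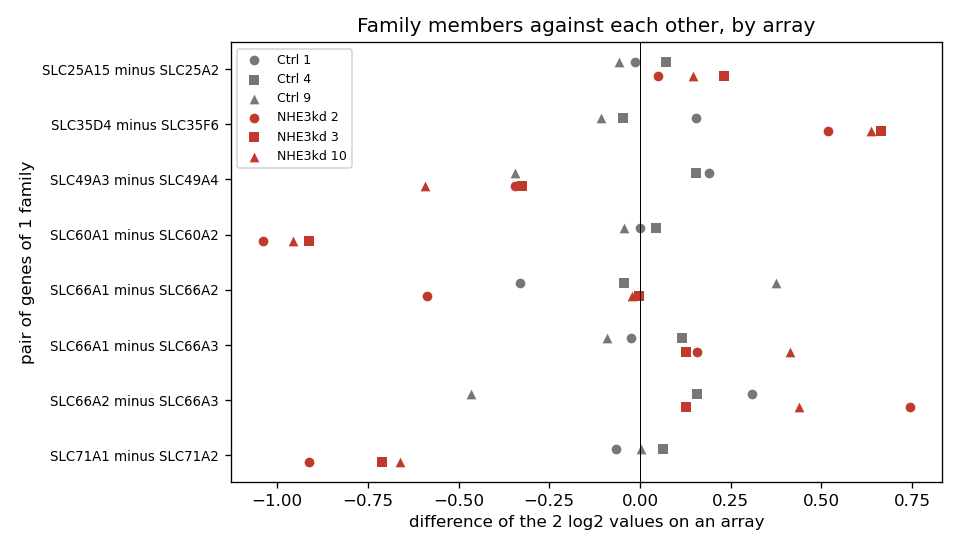
Each point is, on 1 array, the log2 value of the first gene minus that of the second gene for the 8 pairs of genes that share a family, grey for Ctrl and red for NHE3kd. The groups lie apart for 4 of the 8 pairs, those of SLC35, SLC60 and SLC71 and SLC66A1 with SLC66A3, and overlap for the other 4. The share for pairs over all genes was not computed, and 35.7% of single named genes did not overlap. In the SLC35 and SLC60 pairs SLC35D4 and SLC60A2 were already called singly, while SLC35F6 (-0.06) and SLC60A1 (0.09) changed little.

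The 3 PQ-loop genes of SLC66 all had log2 fold changes below 0, and none passed the test. At an unadjusted p under 0.05 there was 1, SLC66A3. SLC66A1 exports cationic amino acids from the lysosome, and SLC66A2 and SLC66A3 are less studied relatives. SLC66A3 had values of -0.19, -0.12 and 0.31 in Ctrl cells and -0.62, -0.39 and -0.48 in NHE3kd cells. All NHE3kd arrays were below all Ctrl arrays, and the log2 fold change was -0.49 (SE 0.15, 95% confidence interval -0.86 to -0.13, limma adjusted p = 0.115). Without Ctrl 9 the log2 fold change of SLC66A3 was -0.34 (limma adjusted p = 0.0835). SLC66A1 had values of -0.22, -0.0028 and 0.22 in Ctrl cells and -0.46, -0.26 and -0.06 in NHE3kd cells, which overlapped, with a log2 fold change of -0.26 (SE 0.15, limma adjusted p = 0.405). SLC66A2 had values of 0.12, 0.040 and -0.16 in Ctrl cells and 0.13, -0.26 and -0.042 in NHE3kd cells, with a log2 fold change of -0.06 (SE 0.12, limma adjusted p = 0.872). Within the family SLC66A1 minus SLC66A3 was higher on each NHE3kd array (0.13 to 0.41) than on any Ctrl array (-0.09 to 0.11). However, NHE3kd 3 lay only just above Ctrl 4 (exact permutation p = 0.10, the lowest possible here, adjusted 0.20).

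The mitochondrial carriers SLC25A15 and SLC25A2 exchange ornithine and citrulline for the urea cycle, and both lay slightly higher in NHE3kd cells without passing the test. SLC25A15 had values of -0.0081, 0.09 and -0.08 in Ctrl cells and 0.09, 0.29 and 0.19 in NHE3kd cells, where NHE3kd 2 barely exceeded Ctrl 4, and a log2 fold change of 0.19 (SE 0.07, 95% confidence interval 0.020 to 0.37, limma adjusted p = 0.184). SLC25A2 had values of 0.0064, 0.020 and -0.026 in Ctrl cells and 0.043, 0.062 and 0.047 in NHE3kd cells. Its groups also did not overlap, yet the log2 fold change was only 0.05 (SE 0.03, 95% confidence interval -0.022 to 0.12, limma adjusted p = 0.423).

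Of the 21 genes SLC49A4 and SLC33A2 had the widest spread among the Ctrl arrays, with SDs of 0.40 and 0.32 (n = 3). SLC49A4, also named DIRC2, a protein of the lysosomal membrane, had values of -0.29, -0.17 and 0.45 in Ctrl cells and 0.28, 0.32 and 0.48 in NHE3kd cells. Ctrl 9 alone lay within the range of the NHE3kd arrays, and the log2 fold change of 0.36 (SE 0.20, 95% confidence interval -0.14 to 0.86) did not pass the test (limma adjusted p = 0.409). Without Ctrl 9 it was 0.59 and passed (limma adjusted p = 0.0236). SLC33A2, also named MFSD3, spread from -0.34 in Ctrl 1 to 0.29 in Ctrl 4, but only from -0.06 to 0.0051 over the NHE3kd arrays, and had a log2 fold change of -0.024 (SE 0.16, limma adjusted p = 0.965). SLC49A3, also named MFSD7, had a log2 fold change of -0.06 (SE 0.06, limma adjusted p = 0.7).

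SLC38A12, also named TMEM104, belongs to a family of neutral amino acid transporters. Its NHE3kd arrays were close together at 0.17, 0.14 and 0.18, while its Ctrl arrays were -0.15, -0.019 and 0.17, so that Ctrl 9 lay among them, and the log2 fold change was 0.16 (SE 0.08, limma adjusted p = 0.358). The antisense RNA SLCO4A1-AS1 had values of -0.14, 0.05 and 0.09 in Ctrl cells and 0.26, 0.10 and 0.20 in NHE3kd cells. The groups did not overlap, although NHE3kd 3 lay close to Ctrl 9, and the log2 fold change was 0.19 (SE 0.08, limma adjusted p = 0.243). The gene on the opposite strand was not analysed here.

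The position of the changed genes among their measured neighbours was described next, with the 5 measured genes on each side in the RefSeq gene order. Around SLC60A2 on chromosome 6, 4 of 10 neighbours were higher and 0 lower, with a median log2 fold change of 0.33, and over all named genes 9.96% were higher and 4.51% lower. They included CDK19 (0.91, SE 0.16) and RPF2 (0.88, SE 0.13) on one side and TRAF3IP2-AS1 (0.42) and FAM229B (0.37) on the other. Around SLC35D4 on chromosome 18, 3 of 10 were higher and 0 lower, namely GATA6 (0.56), CABLES1 (0.22) and TTC39C (0.62). Of the 232 named genes of this chromosome 55 were higher and 3 lower, to be read against the same 9.96% and 4.51%. Around SLC9D1 on chromosome 13 only the next gene, TFDP1 (0.51), was called of 10. Around SLC75A1 on chromosome 4 only TNIP2 (-0.85) was called, and the 5 neighbours on that side all had log2 fold changes below 0. For SLC66A2, also on chromosome 18, 0 of 10 neighbours were called by limma and their median was 0.15. The part of the chromosomal neighbourhood in the changes of these genes was not tested.

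**Figure D4:**
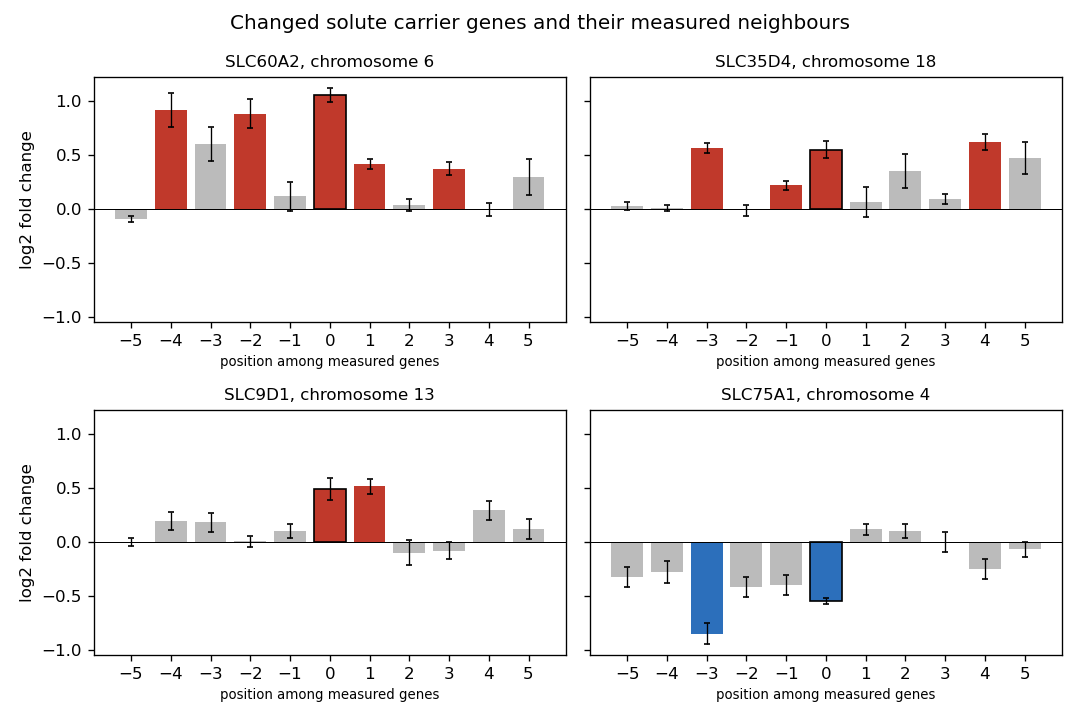
The 4 panels show the log2 fold change of NHE3kd against Ctrl, with the SE as error bars, for each changed solute carrier gene (position 0, black edge) and for the 5 measured genes before and after it in gene order. Red bars were called higher, blue bars lower and grey bars did not pass limma. Around SLC60A2 4 of the 10 neighbours are red, around SLC35D4 3, around SLC9D1 1, and around SLC75A1 1 is blue.

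Another 55 measured genes carry an SLC number only as a synonym in RefSeq, a set formed once the array names had been seen. Of these 7 were higher and 3 lower in NHE3kd cells, or 18.2% called, beside 14.5% of all named genes. The higher ones included XPR1, the phosphate exporter (log2 fold change 1.12, SE 0.05, limma adjusted p = 0.00168), SFXN4, a mitochondrial protein of the sideroflexin family (0.77, SE 0.05), and PTCHD4, a relative of the Hedgehog receptor (1.19, SE 0.10). PTCH1 (0.75), LETMD1 (0.64), SFXN5 (0.29) and NIPAL3 (0.25) were the others. The lower ones were STRA6, the retinol transporter (-1.09, SE 0.13), CNNM4, a magnesium transporter (-0.54, SE 0.08), and MTCH1, a mitochondrial outer membrane protein (-0.54, SE 0.11). The mitochondrial pyruvate carrier genes MPC1 (0.47, SE 0.40) and MPC2 (0.39, SE 0.22) did not pass, and both were highest in Ctrl 9 among Ctrl arrays. The 17 symbols that begin with SLC but fall outside the rule, mostly antisense RNAs, had 0 calls by limma, and 2 of them had an unadjusted p under 0.05.

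Genes that work with solute carriers were taken from short lists of partners and regulators, whose counts stand beside 14.5% called among all named genes (9.96% higher, 4.51% lower) and 32.5% at an unadjusted p under 0.05. Of 4 measured partners of sodium-proton exchangers (7 listed) none passed limma, with log2 fold changes from -0.21 for CHP1 to 0.11 for EZR and 1 unadjusted p under 0.05. Of 6 monocarboxylate and pyruvate partners LDHB, a lactate dehydrogenase subunit, was higher (0.42, SE 0.05, limma adjusted p = 0.00836), 0 were lower and 2 had an unadjusted p under 0.05. Of 5 regulators of glucose transport TXNIP, an arrestin that promotes the uptake of glucose transporters from the surface, was higher (1.30, SE 0.21) and the hexokinase HK2 was lower (-0.49, SE 0.10), and these 2 were those with an unadjusted p under 0.05. Of 9 measured genes of the amino acid response (11 listed) the serine synthesis enzymes PSAT1 (1.48, SE 0.22) and PHGDH (0.96, SE 0.17) were higher and 0 lower. In this list 5 had an unadjusted p under 0.05. Among them were the stress response factors ATF3 (-0.60, limma adjusted p = 0.194) and DDIT3 (-0.46, limma adjusted p = 0.153), with all NHE3kd arrays below all Ctrl arrays. The remaining gene of these, ASNS, went the other way (0.46, limma adjusted p = 0.209), and its groups overlapped. None of the 6 kinases of cation-chloride cotransport passed limma (4 with an unadjusted p under 0.05), nor any of 9 metal response genes (13 listed, 1 with an unadjusted p under 0.05). Of 5 oxidative stress genes (8 listed) HMOX1, the heme oxygenase, was lower (-1.58, SE 0.33), and 2 had an unadjusted p under 0.05. Of 10 markers of colonic epithelium (13 listed) VIL1, the microvillar protein villin, was higher (0.77, SE 0.04) and 0 were lower, with 5 of the 10 below 0 and 2 at an unadjusted p under 0.05. The other of these was the keratin KRT20 at -0.86 (SE 0.22, limma adjusted p = 0.0814), with all NHE3kd arrays below all Ctrl arrays. None of 3 fibroblast markers (7 listed) passed limma or had an unadjusted p under 0.05, and of 4 leukocyte markers (7 listed) LYZ was higher (0.92, SE 0.15) and CD68 lower (-1.51, SE 0.18), with 3 at an unadjusted p under 0.05. The part of these genes in the changes of the solute carriers was not tested.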

How the data were processed

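Total RNA of SK-CO15 cells was hybridized to Affymetrix Human Gene 2.0 ST arrays, 3 Ctrl and 3 NHE3kd. The authors deposited log2 values. They used RMA16 of GeneSpring GX, whose version the sources used here do not give, for the summary of probes and subtracted the Ctrl mean of each probe set, so the direction is NHE3kd minus Ctrl and the level is unknown. The Ctrl mean of every named gene lay within 3.3e-05 of 0. The median of a column over all probe sets was -0.0058 in Ctrl 1, 0.0018 in Ctrl 4 and -0.0010 in Ctrl 9. In NHE3kd 2 it was -0.00027, in NHE3kd 3 -0.0085 and in NHE3kd 10 -0.018. Per the submitters' processing notes the build is hg19. No scanner files were used here, so dim probe sets were not removed and batches could not be looked for. Precision is limited by the number of arrays.

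Of 48144 probe sets, 16098 had 1 gene symbol, 0 several and 32046 none. All 16098 were matched by gene ID to RefSeq on GRCh38.p14. Each of the 21 genes was matched this way. Some items are not reported here.

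NHE3kd was compared with Ctrl in R 4.3.3 by limma 3.58.1 (lmFit and eBayes, two-sided, no covariates) over all 48144 probe sets, with Benjamini-Hochberg adjustment and a threshold of 0.05. Where a gene had more than 1 probe set, the mean of these entered with that fit's variance prior (1.61 prior and 4 residual degrees of freedom). The fit was tested on simulated data. The rule named each solute carrier past the test, the measured genes of certain transport families, the smallest p-values of groups without a call and listed partner genes past the test. The other members of the 21, neighbouring genes, synonym genes, SLC9A3-OT1, EZR, CHP1, ATF3, DDIT3, ASNS, KRT20, MPC1 and MPC2 were named after their values were seen. Members and lists were chosen with earlier results of these data known. The major facilitator and PQ-loop groups and the synonym set were formed after the array names had been seen. Alternatives were array weights, an unmoderated t-test with equal variances, Welch's test, a test against 1.5-fold, equal array medians, quantile normalization, named probe sets only, 1 row per gene, the number of the sample title as a covariate, array annotation symbols and each array left out in turn. The methods name a normalized t-test, and the unmoderated test stands in for it. The paper's legend for topoisomerase 2 expression names a moderated t-test, the kind used in the main fit.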

Additional observations from a re-analysis of the deposited data

How the results depend on the processing

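The count of solute carrier genes called was 4 (3 higher and 1 lower). It was 2 (1 higher) with the unmoderated t-test (7 at an unadjusted p under 0.05) and 1 (1 higher, 0 lower) in the test against 1.5-fold. Welch's test called 0, with 6 at an unadjusted p under 0.05. Over all 48144 probe sets the main fit called 4206 and the unmoderated t-test 840. The test against 1.5-fold called 176 probe sets and Welch's test 5, and 1916 were called without Ctrl 4 and 1685 without NHE3kd 3. The count of solute carrier genes was 2 to 4 (1 to 3 higher) when single arrays were left out, with 2, SLC60A2 and SLC75A1, without Ctrl 4 or NHE3kd 3. The other alternatives gave 3 to 5 calls, which included SLC60A2, SLC35D4 and SLC75A1 each time. Where 5 were called, with named probe sets only, SLC68A1 was added, and with the title number as a covariate it took the place of SLC9D1. The sign of the log2 fold change turned for SLC67A2 (-0.0503 to 0.0892; without NHE3kd 10, -0.035), SLC33A2 (-0.195 to 0.121) and SLC66A2 (-0.150 to 0.0425) when single arrays were left out, none of which was called. Of the recomputed values of single genes 309 kept their direction and their side of the threshold, 19 lost the call, 3 gained it and 5 turned sign. The cause was not tested. No paired analysis was possible because the groups share no replicate number.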
